A study of Rattus norvegicus with 6 samples.

Results

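The genes described here are 46 genes of DNA damage signalling and repair, listed by function: the damage kinases and the sensors that switch them on, and the enzymes of homologous recombination, end joining, base excision, nucleotide excision and replication fork repair. The list names genes by function and uses no threshold on a value, but it was drawn up with earlier results of these data known. Of the 46, 37 were measured by a transcript cluster that the array's annotation gives to that gene alone, each by a single cluster, out of 14506 genes measured in the same way. Atr, Xrcc3, Prkdc, Ercc2, Ercc4, Ercc5, Blm, Wrn and Msh6 were not analysed here. The cultures were rat primary motor neurons, taken at embryonic day 13.5 and grown for 2 days, which then received 1 microM camptothecin or the same volume of the solvent DMSO for 2 h. No genotype, strain or sex is named in the labels, and every array comes from the same kind of culture. Each treatment had 3 arrays, called biological replicates in the labels without word of how the cultures were kept apart, so the p-values speak of the spread among these 6 arrays, which may be technical. Values are deposited log2 expression values, and changes are log2 differences, camptothecin minus DMSO, with limma's standard error (SE).

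Camptothecin holds topoisomerase 1 on DNA after it has cut a strand. A replication fork or a transcribing polymerase that meets such a complex can turn the nick into a broken end, and cells answer through the ATM and ATR kinases and their downstream kinases Chek2 and Chek1. A neuron that no longer divides has no sister chromatid to copy from, so single-strand break repair and end joining carry much of the load there, while homologous recombination serves cells that replicate. Most of this response acts by modifying proteins already present, which an array of RNA levels does not see.

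The label motor neuron was set against marker genes. Of 9 motor neuron markers measured, 6 were dim, meaning below the median brightness of all clusters, among them Isl1 and Slc18a3, the vesicular acetylcholine transporter. Lhx3, Ret and Nefh were not dim. All 12 cycling cell markers and all 8 spinal interneuron markers lay above it, but so did 8472 of all 14506 genes. Levels of different genes are not comparable, so this does not show which cells were present. The values describe the culture in bulk. In bulk cultures fewer cells of a type and less RNA per cell cannot be told apart. Top1, the target of the drug, fell 1.56-fold, from 10.90 to 10.26 (change -0.64, SE 0.08, adjusted p = 0.00254).

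After 2 h of camptothecin 5 of the 37 measured members rose and 0 fell, and all but Lig4 moved by little. The risers were Lig4, Apex1, Chek1, Rad52 and Lig3, which encode the ligase of end joining, the main abasic site nuclease, the kinase downstream of ATR, a recombination mediator and the ligase of single-strand break repair. Their share, 13.5% of the measured members, lies near the background, since limma called 11.3% of all genes higher. Of all genes 9.35% were called lower and 20.7% in either direction. The 0 falls among members stand beside 5 members lower at an unadjusted p under 0.05, Nbn, Brca1, Bard1, Aptx and Ercc6. At that level 11 of the 37 were higher, while of all 14506 genes 3224 were higher and 1925 lower. The same background applies to such counts for the smaller lists below. Values of the treatments did not overlap for 17 of the 37 members, against 42.6% of all genes. The median change of the members was 0.04, beside 0.06 for all genes, and 24 of the 37 changed by 0.2 or less in either direction. With 1 array left out, the share of all genes called higher fell below 11.3% in every fit, so member counts are given beside it. Dropping camptothecin replicate 1 gave 6 risers (9.29% of all genes), and dropping its replicate 2 gave 3 (6.91%). Leaving out the first DMSO array gave 4 (5.77%). The third camptothecin array left out gave 2 (6.16%), as did the second (4.60%) and the third DMSO array (4.58%). Lig4 was among the risers each time.

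The count of risers depends on the scale. The camptothecin arrays have slightly higher medians (6.31 to 6.33, against 6.22 to 6.28), and of all genes called, 54.8% were higher on the deposited scale. Subtracting each array's median made that 36.1%, and subtracting the mean of its ribosomal protein genes 7.87%. The ribosomal centring moved the median change of all clusters from 0.07 to -0.18. Among the members the deposited scale gave 5 rises and 0 falls, median centring 3 and 1, and ribosomal centring 1 and 14. The backgrounds moved as well: 6.29% of all genes were higher and 11.1% lower with median centring, and 2.50% and 29.3% with ribosomal centring. Lig4 rose on all 3 scales. With median centring Apex1 and Rad52 rose too, while Chek1 (0.29, adjusted p = 0.065) and Lig3 (0.24, adjusted p = 0.108) did not pass. With ribosomal centring those 4 kept a positive change that did not pass. That centring turned Xrcc2, Ogg1, Ercc3 and Fanca below 0 among the members described here with array values.

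**Figure D1:**
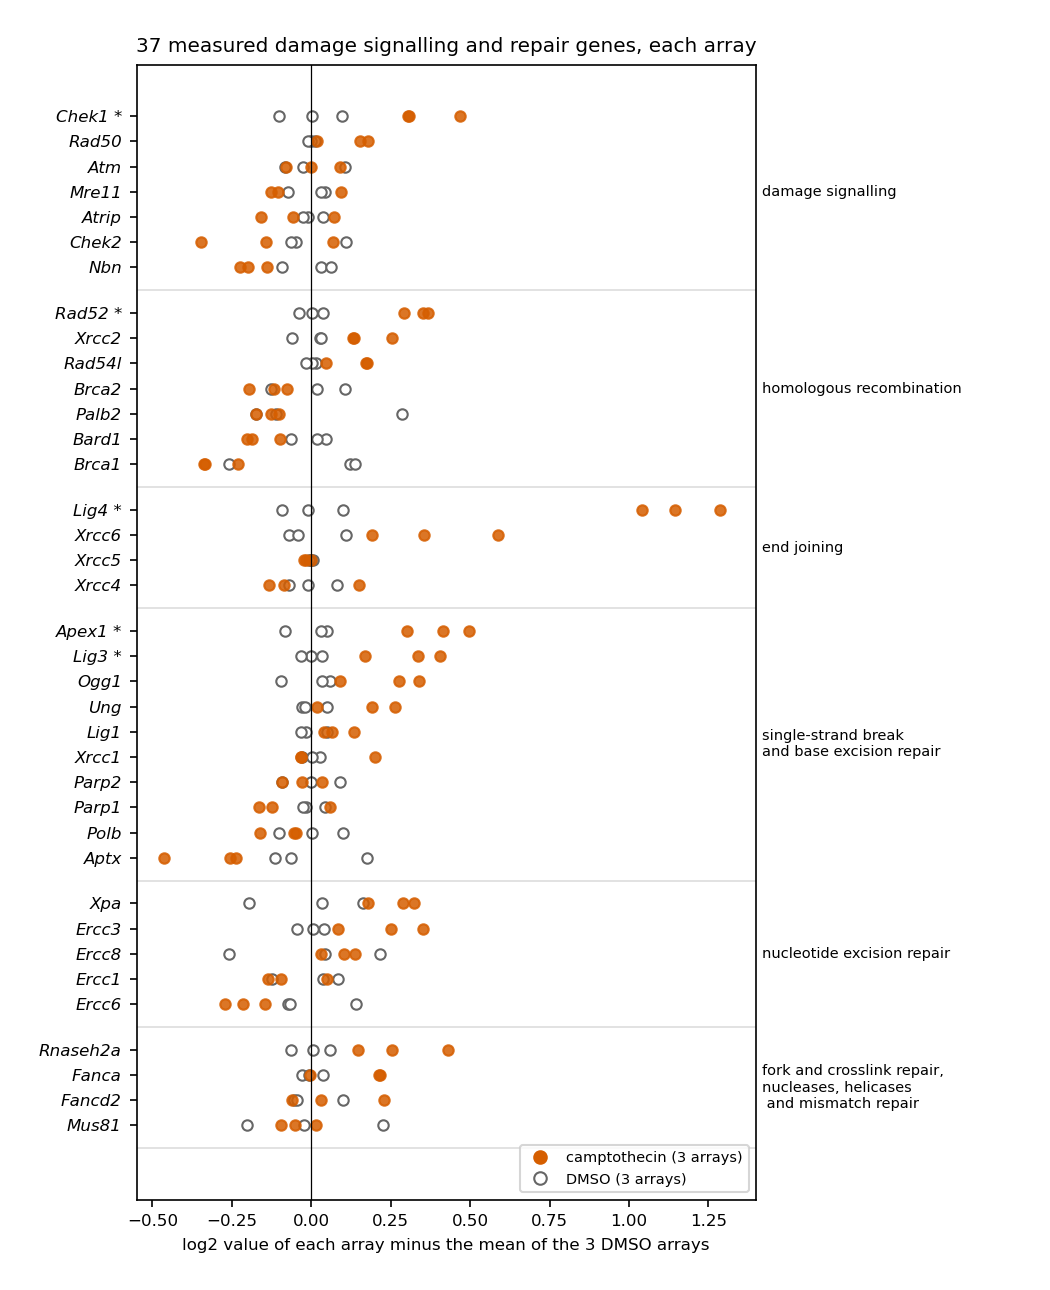
Each point is the log2 value of an array minus the mean of the 3 DMSO arrays of that gene, for the 37 measured members in 6 roles; filled points are camptothecin, open points DMSO, and an asterisk marks a gene that rose at an adjusted p under 0.05. The camptothecin points of Lig4 lie apart at more than 1, those of the other risers between 0.1 and 0.5, and most other members scatter about 0.

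**Figure D2:**
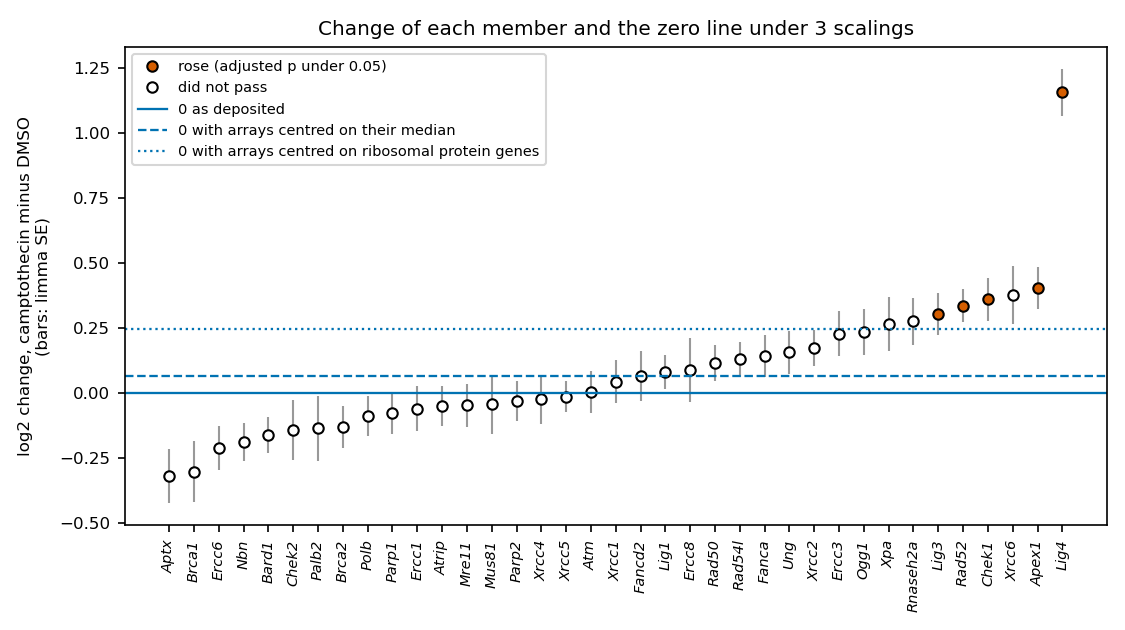
Change of each member with limma's SE, in order of size; filled points rose as deposited, and the blue lines mark where 0 falls on the deposited scale, after median centring and after ribosomal centring. Lig4 is far above all 3 lines, and Apex1, Chek1, Rad52 and Lig3 are above the ribosomal line by less than 0.2.

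Non-homologous end joining rejoins a broken end without a template: the Ku dimer of Xrcc6 (Ku70) and Xrcc5 (Ku80) caps the end, and Lig4 seals it with its partner Xrcc4, on which the stability of the ligase protein depends. Lig4 read 9.45, 9.59 and 9.35 with camptothecin and 8.41, 8.30 and 8.22 with DMSO. Every treated array was thus more than 0.9 above every control array. Lig4 rose 2.23-fold (change 1.16, SE 0.09, n = 3 per treatment, adjusted p = 0.000357), and 27 of the 1643 genes that rose did so by at least as much, Lig4 included. It was the single member with a change of 0.5 or more in size, and it kept its call in all 15 alternatives, with changes from 0.91 to 1.22 and adjusted p from 7.94e-06 to 0.00305.

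Its partner Xrcc4 read 6.82, 7.06 and 6.77 with camptothecin and 6.99, 6.90 and 6.84 with DMSO, and the groups overlapped (change -0.02, SE 0.09, adjusted p = 0.899). The Lig4 to Xrcc4 ratio rose within arrays by 1.18 (SE 0.03), and did not overlap between the treatments. The exact permutation p of that difference was 0.1, two-sided, the smallest that 3 arrays against 3 can give (0.14 adjusted over the 7 pairs of partner genes compared). A ratio within an array shows unequal change and not that Xrcc4 stayed constant. The SE of each difference between 2 genes, here and below, comes from the 3 ratios per treatment and not from limma. It can be too small by luck, since the smallest limma SE of any gene was 0.059. Of the 7 pairs 5 had ratios that did not overlap, and the share over all gene pairs was not computed.

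The Ku subunits also read differently. Xrcc6 read 6.98, 7.38 and 7.14 with camptothecin and 6.90, 6.72 and 6.75 with DMSO. All treated arrays were above all controls, but by a spread that left it short of the threshold (change 0.38, SE 0.11, adjusted p = 0.0613). Xrcc5 had the tightest values of all members, from 8.80 to 8.83 over the 6 arrays (change -0.01, SE 0.06). The change of Xrcc6 was larger than that of Xrcc5 by 0.39 (SE 0.13, exact permutation p = 0.1, adjusted 0.14).

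The start region of Lig4 is shown because it is the member with the largest change. Those of Lig3 and Apex1 are shown because they rose too and differ from it in the number or kind of boxes marked. Each is the 250 bases before the gene's start in RefSeq on the rat assembly GRCr8, 5′ to 3′ along the gene; the annotated span of Lig4 begins 97 bases before that start. Capitals mark GGGCGG (the GC box) and CCAAT (the CCAAT box) on either strand.
Lig4, chr16:86220192-86220441, plus strand: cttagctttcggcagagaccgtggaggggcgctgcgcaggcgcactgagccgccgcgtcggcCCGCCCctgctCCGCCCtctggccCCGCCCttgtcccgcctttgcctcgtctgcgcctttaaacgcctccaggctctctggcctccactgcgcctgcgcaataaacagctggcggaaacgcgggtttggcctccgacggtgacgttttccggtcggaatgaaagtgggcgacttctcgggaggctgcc
Lig3, chr10:68215121-68215370, plus strand: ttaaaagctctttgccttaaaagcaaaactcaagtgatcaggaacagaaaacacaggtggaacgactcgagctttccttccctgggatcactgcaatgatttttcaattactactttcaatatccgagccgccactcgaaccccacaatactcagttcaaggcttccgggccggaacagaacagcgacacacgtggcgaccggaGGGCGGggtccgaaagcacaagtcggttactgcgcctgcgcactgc
Apex1, chr15:26617976-26618225, plus strand: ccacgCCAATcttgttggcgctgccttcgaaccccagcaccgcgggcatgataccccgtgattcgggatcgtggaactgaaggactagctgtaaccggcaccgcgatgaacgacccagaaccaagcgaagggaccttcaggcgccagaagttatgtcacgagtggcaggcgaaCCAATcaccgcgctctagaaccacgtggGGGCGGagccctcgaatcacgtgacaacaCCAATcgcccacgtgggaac

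The Lig4 region holds 3 GC boxes, all on the opposite strand and all between positions -188 and -159 from the start, and is 67.6% G and C. The Lig3 region has 1 GC box, at positions -46 to -41, and the Apex1 region has 3 CCAAT boxes and 1 GC box. Over the 300 base windows of the table, which run to 50 bases after the start, a GC box was found in 21 of 32 members with a start there (65.6%), beside 50.1% of 12518 starts of the measured genes and 33.1% of all 33469 starts. The CCAAT box was found in 13 of the 32 (40.6%), beside 38.2% and 37.5%. Xrcc6 and Parp1, which were not called, also have 3 GC boxes, and the windows of the risers Chek1 and Rad52 hold no match to any motif searched. The cyclic AMP response motif TGACGTCA was matched in Fancd2, and TTTCGCGC, a form of the E2F motif, in Lig1. TTTGGCGC, TATAAA and CGCATGCG were matched in 0 of the 32 windows. Only exact matches were counted, so a variant of a motif, as of E2F, would not be found. Such matches describe letters and do not show binding.

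**Figure D3:**
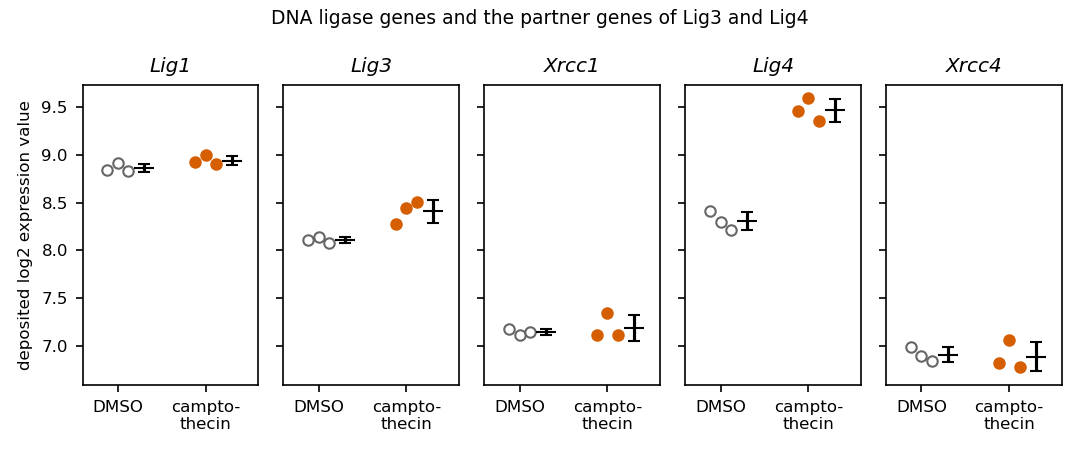
Deposited log2 values of each array for the 3 DNA ligase genes and for Xrcc1 and Xrcc4, the partners of Lig3 and Lig4; open points are DMSO, filled points camptothecin, and the bars give mean and SD of 3 arrays. Lig4 shifted by 1.16 and Lig3 by 0.30, while Lig1, Xrcc1 and Xrcc4 changed by 0.08 or less in size; levels of different genes on the array are not comparable with each other.

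Single-strand break and base excision repair had 2 rises in 10 members and 0 falls. A damaged base is cut out by a glycosylase such as Ung, for uracil, or Ogg1, for oxidised guanine; Apex1 nicks the bare site, Polb fills it, and Lig3 seals it on the scaffold Xrcc1. Apex1 read 9.55, 9.74 and 9.66 with camptothecin and 9.30, 9.28 and 9.16 with DMSO. The groups lay apart, and Apex1 rose 1.32-fold (change 0.40, SE 0.08, adjusted p = 0.0149). Its call was lost without camptothecin replicate 3 (adjusted p = 0.0503) or DMSO replicate 3 (0.056) and held in the other 4 such fits.

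Lig3, which works in the nucleus and is the ligase of mitochondria, read 8.27, 8.44 and 8.51 with camptothecin and 8.11, 8.14 and 8.07 with DMSO. The 3 treated values exceeded all controls, and Lig3 rose 1.23-fold (change 0.30, SE 0.08, adjusted p = 0.0423). This was the least secure of the 5 calls: it was lost in 9 of the 15 alternatives, and with 1 array left out it held only without camptothecin replicate 1. Xrcc1 changed by 0.04 (SE 0.08), and the change of Lig3 exceeded that of Xrcc1 by 0.26 (SE 0.10, exact permutation p = 0.1, adjusted 0.14). Lig1, the ligase of replication, changed by 0.08 (SE 0.07), so the 3 DNA ligase genes ran from 0.08 through 0.30 to 1.16.

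Aptx, which removes the adenylate left by a failed ligation and is mutated in a human ataxia, had the lowest change of all members. It read 7.12, 7.14 and 6.91 with camptothecin and 7.55, 7.31 and 7.26 with DMSO, so the groups did not overlap, but the change of -0.32 (SE 0.10) did not pass (adjusted p = 0.082). Aptx was called lower in 6 of the 15 alternatives, none of which leaves out an array. Ogg1 read 7.47, 7.53 and 7.28 with camptothecin and 7.25, 7.23 and 7.10 with DMSO, again apart and short of the threshold (change 0.23, SE 0.09, adjusted p = 0.12). The other members here were the dim Ung (0.16), Polb (-0.09), and the poly(ADP-ribose) polymerases Parp1 (-0.08) and Parp2 (-0.03), which mark breaks and draw Xrcc1 to them. Their groups overlapped.

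Among damage signalling genes Chek1 was the only one of 7 to pass. It read 7.60, 7.77 and 7.60 with camptothecin and 7.39, 7.30 and 7.19 with DMSO. The groups were 0.2 apart at their nearest, and Chek1 rose 1.28-fold (change 0.36, SE 0.08, adjusted p = 0.0276). That call was lost without camptothecin replicate 2 or 3 or DMSO replicate 2 or 3, with adjusted p from 0.0581 to 0.0884, and in 8 of the 15 alternatives in all. Chek2, the kinase downstream of Atm, was dim at 3.98, 4.40 and 4.18 with camptothecin and 4.28, 4.44 and 4.27 with DMSO. Its groups overlapped (change -0.14, SE 0.12, adjusted p = 0.466).

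The MRN complex of Mre11, Rad50 and Nbn finds broken ends and recruits Atm. Nbn read 8.13, 8.04 and 8.07 with camptothecin and 8.30, 8.17 and 8.33 with DMSO, lower in each treated array but not past the threshold (change -0.19, SE 0.07, adjusted p = 0.122). Rad50 lay on the other side, with a change of 0.12 (SE 0.07, adjusted p = 0.311) and no overlap. The changes of Rad50 and Nbn differed by 0.30 (SE 0.06, exact permutation p = 0.1, the smallest possible here, adjusted 0.14). Neither was paired with Mre11 in such a test. Mre11 (-0.05), Atrip, which brings ATR to single-stranded DNA (-0.05), and Atm (0.00, SE 0.08) had groups that overlapped.

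Homologous recombination had 1 rise in 7 members. Rad52 read 7.49, 7.47 and 7.41 with camptothecin and 7.12, 7.08 and 7.16 with DMSO. Both groups were tight, with SDs of 0.04, and Rad52 rose 1.26-fold (change 0.34, SE 0.06, adjusted p = 0.0133); without DMSO replicate 2 the adjusted p was 0.0589. Xrcc2, which acts in strand exchange, read 6.78, 6.66 and 6.66 with camptothecin and 6.55, 6.47 and 6.56 with DMSO, apart but not past the threshold (change 0.17, SE 0.07, adjusted p = 0.141). The recombination motor Rad54l, which was dim, changed by 0.13 (SE 0.07).

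The BRCA genes and their partners had changes below 0, none of which passed. Brca1, dim, read 5.97, 6.07 and 5.97 with camptothecin and 6.43, 6.05 and 6.44 with DMSO. DMSO replicate 2 lay among the treated values (change -0.30, SE 0.12, adjusted p = 0.129), and without it Brca1 was called lower (adjusted p = 0.0281). Its partner in the ubiquitin ligase, Bard1, changed by -0.16 (SE 0.07, adjusted p = 0.157), and its groups did not overlap. Palb2, which joins Brca1 to Brca2, was dim. Palb2 (SE 0.12, adjusted p = 0.52) and Brca2 (SE 0.08, adjusted p = 0.336) both changed by -0.13, and the groups of each overlapped. Neither the pair of Brca1 and Bard1 nor that of Brca2 and Palb2 had a ratio apart between the treatments (exact permutation p = 0.5 and 1).

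Nucleotide excision repair, which removes bulky lesions and restarts polymerases stalled on them, had 0 rises and 0 falls in 5 members by limma, with 2 higher and 1 lower at an unadjusted p under 0.05. Xpa, which checks the lesion, read 6.82, 6.78 and 6.67 with camptothecin and 6.30, 6.53 and 6.66 with DMSO, so the groups touched without overlap (change 0.26, SE 0.10, adjusted p = 0.131). Ercc3, a helicase of the general factor TFIIH, read 7.60, 7.86 and 7.76 with camptothecin and 7.55, 7.52 and 7.47 with DMSO (change 0.23, SE 0.09, adjusted p = 0.115). The transcription-coupled factors Ercc6 and Ercc8, mutated in Cockayne syndrome, changed by -0.21 (SE 0.08, adjusted p = 0.138) and 0.09 (SE 0.12). Ercc6 was lower in each treated array, Ercc8 overlapped, and the difference of their changes was -0.30 (SE 0.10, exact permutation p = 0.1, adjusted 0.14). The nuclease subunit Ercc1 changed by -0.06.

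Of the fork, crosslink and mismatch repair genes 4 were measured, with 0 calls by limma and 1 higher at an unadjusted p under 0.05. Rnaseh2a, the catalytic subunit of the RNase that removes ribonucleotides from DNA, read 7.51, 7.69 and 7.40 with camptothecin and 7.32, 7.19 and 7.26 with DMSO, apart but short of the threshold (change 0.28, SE 0.09, adjusted p = 0.078). Fanca, a subunit of the Fanconi anaemia ubiquitin ligase, read 6.44, 6.22 and 6.44 with camptothecin and 6.20, 6.22 and 6.26 with DMSO, with overlap (change 0.14, SE 0.08, adjusted p = 0.285). Fancd2, the protein that ligase marks, changed by 0.07, and the dim Mus81, a nuclease that cuts branched DNA, by -0.04.

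Members whose genes are short tended to have the higher changes. GRCr8 spans were used, since the array's own build is unknown. Of the 6 members spanning under 10 kb 2 rose (median change 0.26), as did 3 of the 11 from 10 to 30 kb (0.04), while of the 18 from 30 to 100 kb (-0.03) and the 2 of 100 kb or more (-0.01) 0 rose or fell by limma. Of all genes in these bins, 15.3%, 15.1%, 5.43% and 1.84% rose, 1.21%, 3.67%, 16.2% and 34.9% fell, and the medians were 0.10, 0.11, 0.00 and -0.14. Lig4 spans 8.59 kb and Apex1 2.19 kb, and the longest member, Xrcc4, spans 246 kb. Spearman's rho of span and change was -0.39 over the 37 members and -0.31 over 14480 genes, given as descriptions, since the genes share the same 6 arrays.

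**Figure D4:**
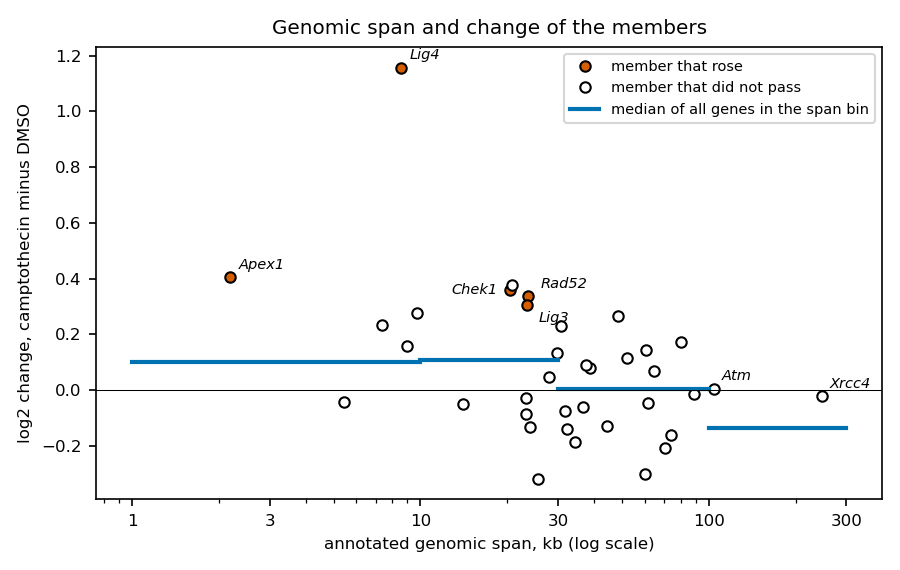
Change of each member against its annotated genomic span on a log axis; filled points rose, open points did not pass, and the horizontal blue lines give the median change of all genes in the bins under 10, 10 to 30, 30 to 100 and 100 kb or more. The risers all span under 30 kb, and Lig4 lies far above the 0.10 median of its bin.

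Several members share a start region with a gene on the other strand. Of the 32 members with a start in the table, 14 had such a gene within 1 kb, each head to head, and 8 of those neighbours were measured. Apex1 and Osgep, which encodes a tRNA-modifying enzyme and starts 113 bases away, moved alike. Osgep read 7.30, 7.64 and 7.37 with camptothecin and 7.11, 6.97 and 6.92 with DMSO, and it rose by 0.44 (SE 0.11, adjusted p = 0.0316), beside 0.40 for Apex1. Rnaseh2a (0.28) and its neighbour Prdx2, a peroxiredoxin gene that rose by 0.27 (SE 0.07, adjusted p = 0.0353), also had like values.

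Other pairs parted. Npat, a regulator of histone genes that starts 556 bases from Atm, read 8.04, 8.04 and 8.17 with camptothecin and 8.61, 8.62 and 8.61 with DMSO. Npat fell by 0.53 (SE 0.07, adjusted p = 0.00305), while Atm changed by 0.00; the difference was 0.53 (SE 0.06, exact permutation p = 0.1, 0.2 adjusted over the 8 pairs). Ankrd49 rose by 0.47 (SE 0.08, adjusted p = 0.00778) beside Mre11 at -0.05, and Nbr1, an autophagy receptor gene, rose by 0.29 (SE 0.07, adjusted p = 0.0341) beside Brca1 at -0.30. For those pairs, and for Xrcc6 and Desi1 (-0.02), the log ratio did not overlap between the treatments. For Apex1 and Osgep, Rnaseh2a and Prdx2, Fancd2 and Emc3 (0.22), and Palb2 and Dctn5 (-0.25) it did. Values of single genes did not overlap for 42.6% of all genes, and the share of such ratios over all gene pairs was not computed. These counts therefore do not set the pairs apart from other genes.

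**Figure D5:**
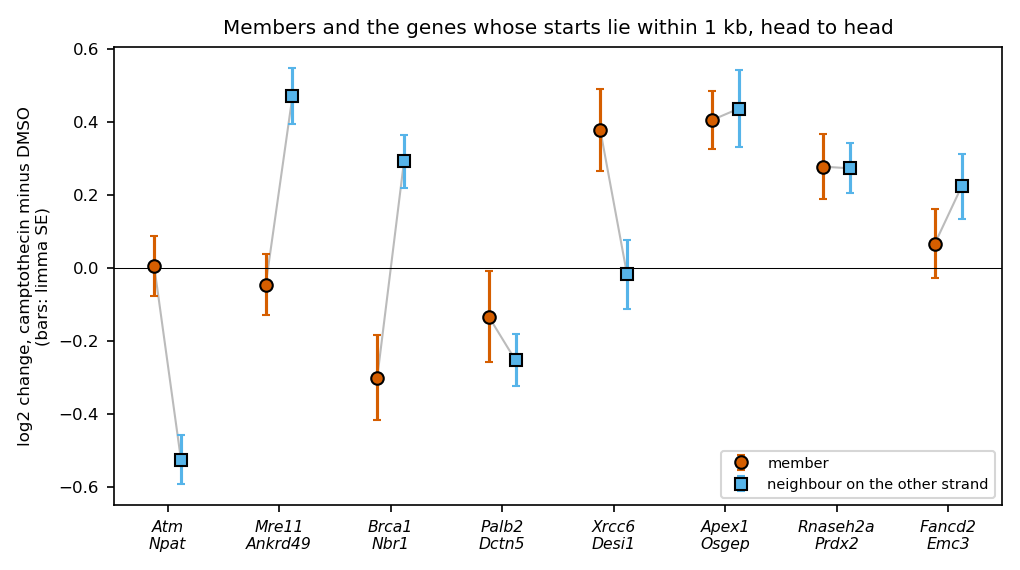
Change of 8 members (circles) and of the measured gene that starts within 1 kb on the other strand (squares), with limma's SE. Apex1 with Osgep and Rnaseh2a with Prdx2 lie level, while Atm with Npat, Mre11 with Ankrd49 and Brca1 with Nbr1 differ by 0.52 to 0.59.

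A wider list of 99 other repair genes, of which 66 were measured, had 3 rises and 12 falls. Of them 18.2% fell, where the background is 9.35%, and 4.55% rose, where it is 11.3%. Their median change was 0.04. Falls were commoner among longer genes, and the median span of this list was 24.8 kb, beside 18.0 kb for all genes. The part of span in its falls was not tested. The rises were Tipin, a replication fork protein (0.49, SE 0.09, adjusted p = 0.0108), Hus1 of the checkpoint clamp (0.44, SE 0.08, 0.0138) and H2ax, the histone phosphorylated around breaks (0.40, SE 0.06, 0.00733). The largest falls were Rad51c, a recombination gene that was dim (-0.76, SE 0.08, 0.00133), and Rad18 (-0.70, SE 0.06, 0.000594). Rad18 encodes the ubiquitin ligase that starts lesion bypass. Next came Pms1, a mismatch repair gene (-0.59, SE 0.10, 0.00953). Chosen after their values were seen, Rad1, the clamp partner of Hus1, fell by 0.53 (SE 0.08, adjusted p = 0.00592) and Rad17, which loads the clamp, by 0.29 (SE 0.08, adjusted p = 0.042). With ribosomal centring 25 of these genes were called lower and 0 higher, beside 29.3% and 2.50% of all genes. Without camptothecin replicate 3, or without DMSO replicate 1, 7 fell, beside 6.94% and 6.32% of all genes.

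Markers of cycling cells lay on both sides of 0. Of 12 measured, 2 rose (16.7%), near the background of 11.3%, and 0 fell by limma, with 1 lower at an unadjusted p under 0.05. The DNA clamp gene Pcna rose by 0.44 and the nucleotide reductase gene Rrm2 by 0.35, while the cyclin genes Ccnb1 (-0.21) and Ccna2 (-0.14) were lower in every treated array without passing. Their mean log2 level was 8.45 to 8.55 with camptothecin and 8.38 to 8.40 with DMSO, and that of the 37 members 7.32 to 7.41 and 7.26 to 7.30. Less each array's median, both overlapped between the treatments, at 2.14 to 2.22 against 2.12 to 2.16 for the cycling markers and 1.00 to 1.08 against 0.97 to 1.04 for the members. The part of cycling cells in the changes of Chek1, Rad52, Lig3 and Apex1 was not tested. Of the 9 motor neuron markers 2 rose, the neurofilament gene Nefh by 0.59 (adjusted p = 0.0125) and the intermediate filament gene Prph, which was dim, by 0.31 (adjusted p = 0.0402), and 0 fell by limma, with 3 lower at an unadjusted p under 0.05. Of the 8 spinal interneuron markers 5 fell and 0 rose by limma, with mean levels of 8.19 to 8.32 against 8.66 to 8.78. Slc32a1 was higher at an unadjusted p under 0.05 (change 0.23, adjusted p = 0.0759). Those that fell span from 40.1 kb (Slc17a6) to 91.2 kb (Pax2). Slc32a1, Lhx1 and Lhx5, which did not, span 4.47 to 8.44 kb. Whether span plays a part was not tested. Of 7 markers of microglia, endothelium or blood, 4 were dim, Cd68 rose by 0.86, and 4 were higher at an unadjusted p under 0.05; their mean level was 6.18 to 6.36 with camptothecin and 6.02 to 6.07 with DMSO. Markers of neural progenitors or astroglia (7 measured) and of fibroblasts (6) had 0 calls by limma, with 1 higher and 1 lower at an unadjusted p under 0.05. Of 3 oligodendrocyte or Schwann cell markers, Mbp fell by 0.48.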

How the data were processed

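RNA of 6 samples was hybridised, 1 per array, to Affymetrix Rat Gene 1.0 ST arrays. The deposited values are log2 expression values per transcript cluster, made by the authors with RMA in oligo per the submitters' processing notes, with versions not given in the sources used here. RMA makes probe values alike in distribution across arrays, so a shift shared by most genes would be reduced.

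Of 29214 clusters, the platform annotation gives 15310 a single gene symbol, 323 several and 13581 none. All clusters were fitted with limma 3.58.1 (R 4.3.3; lmFit and eBayes, treatment as the factor); p-values were adjusted by Benjamini and Hochberg's method over every cluster, and 0.05 was the threshold. A gene took its brightest single-symbol cluster. Ratios of 2 genes were compared by exact permutation tests (SciPy 1.17.1), with SEs from the spread of the ratios within each treatment and not from limma. The fit was also run on simulated data with independent noise and no shift between arrays, which cannot test the choice of scale.

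The members, gene lists, partner pairs and tests were chosen with earlier results of these data known. Values by array are given for members past the threshold and, in each role, the 2 others with the largest change; the 3 largest rises and falls of the wider list, and Top1, are named too. Spans, starts and sequences come from RefSeq (GRCr8), matched by gene identifier for all 37 measured members, 32 with a start. The 15 alternatives covered normalization, centring, brightness, the replicate block, the variance model, the threshold, cluster choice and leaving out each array. The number of arrays limits precision.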

Additional observations from a re-analysis of the deposited data

How the results depend on the processing

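Lig4 kept its call under all 15 alternatives, as did Rad18, Rad51c, Pms1 and Top1 under those that gave them a value. Members higher, 5 as deposited (11.3% of all genes), numbered 3 with median centring (6.29%) and 1 with ribosomal centring (2.50%). They numbered 9 of 31 among clusters at or above the median brightness, where 28.2% of all genes were higher and 18.6% lower. At a threshold of 0.01 there was 1 (3.04% of all genes), and with 1 array left out there were 2 to 6 (4.58% to 9.29%). Members lower, 0 as deposited (9.35% of all genes), numbered 14 with ribosomal centring (29.3%) and 2 of 31 among the brighter clusters. There was 1 each with repeated quantile normalization, median centring, a trended robust variance, the mean over a gene's clusters and single-symbol clusters only. In those fits 10.8% to 11.1% of all genes were lower. With 1 array left out 0 to 1 members were lower, beside 6.32% to 8.40% of all genes. Of the 66 other repair genes measured, 3 higher as deposited became 0 with ribosomal centring, 11 of 49 among the brighter clusters and 1 at 0.01. They became 7 with a trended robust variance, the mean over clusters or single-symbol clusters, where 15.2% to 16.0% of all genes were higher. With 1 array left out they numbered 2 to 4. The 12 lower became 25 by ribosomal centring, and were 6 at 0.01 (5.61% of all genes) and from 7 to 11 when an array was dropped. Ribosomal centring turned Xrcc2 to -0.073, Ogg1 to -0.011, Ercc3 to -0.017 and Fanca to -0.10, and Xrcc4, from -0.11 to 0.032 with 1 array left out, turned positive without camptothecin replicate 1, camptothecin replicate 3 or DMSO replicate 1. Ribosomal centring subtracts the change of 67 ribosomal genes, which is above that of most genes; the cause of that change was not tested. With fewer clusters tested the adjustment is milder, and with fewer arrays the test has less power.

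With the replicate number as a block, 2 members were higher (Apex1 and Lig4) and 0 lower, and 892 genes in all were higher and 1039 lower. The labels do not say that equal numbers share a culture, deviations of same-numbered arrays correlated at -0.084, 0.022 and 0.085, and 2 of the 6 arrays correlated best with their own number. The 6 dim members limit what can be said of Chek2, Brca1, Palb2, Rad54l, Ung and Mus81.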
